A study of Mus musculus with 38 samples.

Results

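The transcriptome of intestinal epithelial cells from mice lacking hexokinase 2 in the epithelium was compared with that of littermate controls before any treatment, across all genes. The comparison holds 9 of the 38 libraries of the series: 5 from knockout mice (KO, labelled Hk2dIEC, day 0) and 4 from control mice (WT, labelled Hk2 flox/flox, day 0), chosen by the day and genotype in their titles. The strain is C57BL/6, and library names such as d0_WT_31 are the titles. KO mice carry the floxed Hk2 allele together with Cre recombinase driven by the Villin promoter, which is active along the epithelium of both the small and the large intestine, and the WT mice are littermates with the floxed allele, so both genotypes share that allele. Untreated mice of the study were either young (9 to 11 weeks) or aged (86 to 92 weeks), and neither the age nor the sex of each day 0 animal is labelled. The other 29 libraries come from mice given 1.5% dextran sodium sulfate (DSS), a chemical that injures the colon lining, for 3 days (7 WT, 8 KO) or 7 days (7 WT, 7 KO), and are used below only to place the day 0 differences. Those mice were males of 10 to 12 weeks, with both genotypes sharing cages. The series title names hexokinase 2, mitochondrial metabolism and cell death as its subject.

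Hexokinases phosphorylate glucose in the first step of glycolysis. Hexokinase 2 binds the outer mitochondrial membrane at voltage-dependent anion channels, and in many tissues it is the isoform that responds to growth and environmental signals, while hexokinase 1 is more evenly present. Colonocytes, the absorptive cells of the colon, draw much of their energy from the oxidation of bacterial butyrate, a pathway that ends in ketone body synthesis, and they share the epithelium with mucus-secreting goblet cells, hormone-secreting enteroendocrine cells and tuft cells.

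Total counts were 12.7 to 44.9 M in WT and 10.5 to 17.5 M in KO, and 20100 to 25830 genes were detected per library. The defining genes of the labelled cell type were abundant: the summed level of 10 epithelial identity genes (Epcam, Cdh1, keratins and others) was 12989 to 16621 CPM (counts relative to the library total, scaled by edgeR's TMM method) in WT and 11369 to 15198 CPM in KO, against 27.1 to 53.5 and 34.8 to 70.05 CPM for 19 T cell markers. Libraries d0_WT_31 and d0_KO_32 stood apart. They held 409.7 and 461 CPM of Xist, the RNA of the inactive X chromosome, where the other 7 libraries held 0.185 to 1.32 CPM, and their Y-linked Ddx3y was at 0.935 and 0.225 CPM against 53.7 to 66.01 CPM. The same libraries had the lowest scores on the first principal component, which took 39.8% of the variance. In d0_KO_32, 61.7% of all counts came from the mitochondrial genome, compared with 9.15 to 18.8% in the other 8. Results are therefore given over all 9 libraries and, as a choice made after seeing the data, over the 7 libraries without these 2. The labels do not state that each library is a separate animal, so p-values measure the spread between these libraries, part of which may be technical.

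Over all 9 libraries, 5 of 14944 tested genes differed between genotypes at an adjusted p under 0.05 (edgeR quasi-likelihood test, Benjamini-Hochberg; 0.0335% of the tested genes). The genes Ces1g, Mt1 and Mt4 rose in KO epithelium (0.0201%), and Hk2 and Per2 fell (0.0134%). An unadjusted p under 0.05 was reached by 1563 genes (10.5%), 832 higher in KO (5.57%) and 731 lower (4.89%), and in 514 genes (3.44%) every KO library lay outside the range of the WT libraries, 261 above it (1.75%) and 253 below it (1.69%). The median log2 fold change of all tested genes was -0.0030. Over the 7 libraries, 565 of 15149 genes passed (3.73%), 355 higher (2.34%) and 210 lower (1.39%), and all 5 genes above were among them. The groups were separate in 3173 genes (20.9%) there, with 3 WT against 4 KO libraries. With the Xist pattern as a covariate over all 9 libraries, 149 genes passed (0.997%), of which 143 were among the 565. Leaving out d0_WT_31 alone gave 37 genes (0.243%), and leaving out d0_KO_32 alone gave 8 (0.0538%). The count was 0 without d0_WT_41 or without d0_WT_43, 3 without d0_WT_46, 8 without d0_KO_24, 1 without d0_KO_53 and 2 without d0_KO_54 or without d0_KO_60. The DESeq2 Wald test over all 9 libraries called 175 genes (1.17%).

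Hk2, the targeted gene, was lower in every KO library than in any WT library. Its level was 245, 380.0, 277 and 435 CPM in the WT libraries d0_WT_31, 41, 43 and 46, and 57.9, 31.7, 76.4, 86.3 and 112 CPM in the KO libraries d0_KO_24, 32, 53, 54 and 60. Between the lowest WT and the highest KO library there was a gap of more than the whole KO range. The log2 fold change was -2.20 ± 0.30 (SE; adjusted p = 0.0331), a mean of 334 ± 88.3 CPM (SD, n = 4) falling to 72.9 ± 30.3 CPM (SD, n = 5). Hk2 lies on chromosome 6, bases 82725025 to 82774454 on the minus strand (coordinates as in the deposited files). The counts cover the whole gene, the part that the floxed allele removes is not given in the sources used here, and the reads were counted without regard to strand, so reads from the overlapping antisense gene Gm17034 are not separated from those of Hk2. Its direction was the same in each fit that left out 1 library, and it passed in 3 of them, those without d0_WT_31, d0_KO_32 or d0_KO_60.

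Of the other hexokinases, Hkdc1 (hexokinase domain containing 1, a further isoform of the family found in epithelia) was the one with separate groups. It measured 23.1, 35.4, 21.9 and 38.5 CPM in WT and 50.1, 40.5, 72.5, 53.3 and 67.6 CPM in KO. All 5 KO libraries were above all 4 WT libraries, with d0_KO_32 the nearest to them. The log2 fold change was 0.93 ± 0.21 with an adjusted p of 0.191 over 9 libraries, and 0.93 ± 0.19 with an adjusted p of 0.0299 over 7. Hk1 was at 222 to 244 CPM in WT and 204 to 233 CPM in KO (log2 fold change -0.12 ± 0.082, adjusted p = 0.608), and its groups overlapped. Hk3 stayed at or below 0.189 CPM, too low to be tested. Per kilobase of gene length, WT epithelium held 55.99 CPM of Hk2, 27.4 of Hk1 and 5.79 of Hkdc1. In KO epithelium Hk1 came first with 25.1 CPM per kilobase, ahead of Hk2 with 12.2 and Hkdc1 with 11.1.

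**Figure D1:**
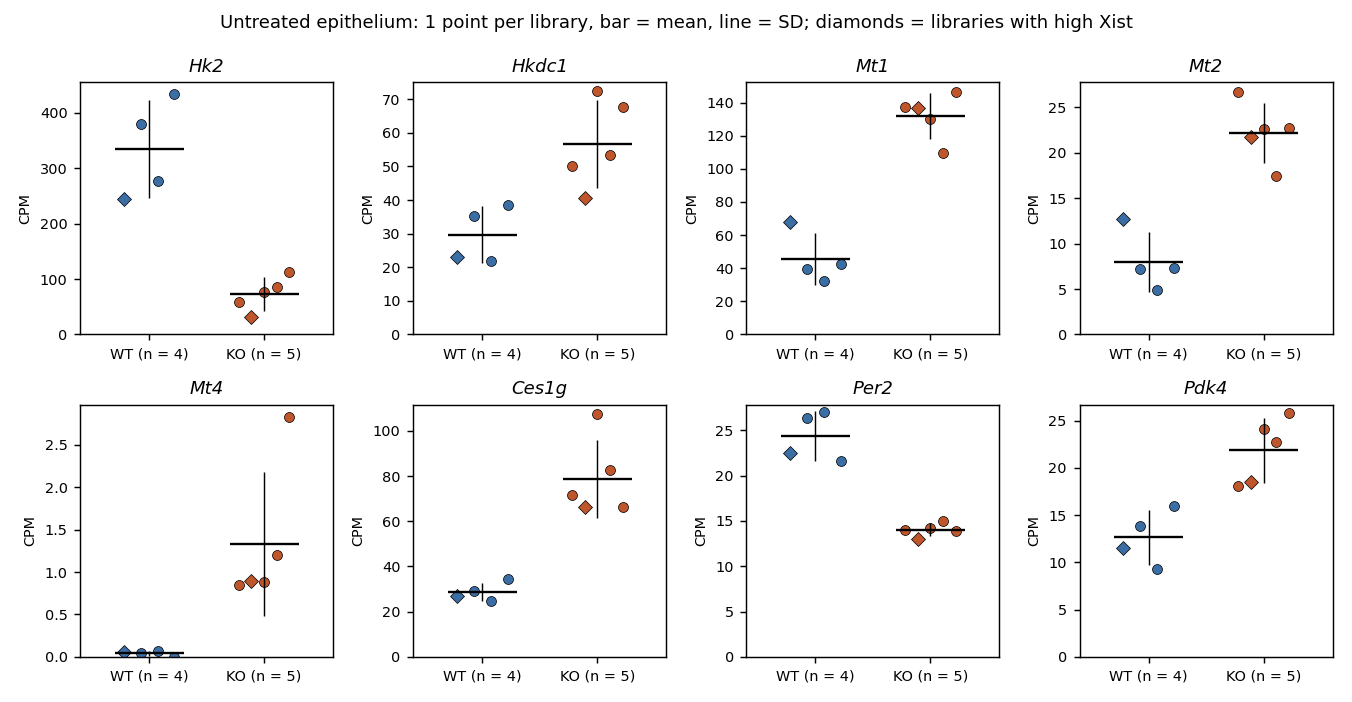
Level in CPM of 8 genes in the 4 WT and 5 KO libraries of untreated epithelium, with 1 point per library, horizontal bars for means and vertical lines for SD; diamonds mark d0_WT_31 and d0_KO_32. The groups of each of the 8 genes are separate, with Hk2 and Per2 lower and the other 6 higher in KO.

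Metallothioneins are small cysteine-rich proteins that bind zinc and copper, and 2 of the 5 called genes belong to them. Mt1 was at 67.8, 39.5, 31.99 and 42.7 CPM in WT and 137, 137, 129.9, 109.7 and 146 CPM in KO. All KO libraries lay above all WT libraries, of which d0_WT_31 was the highest. Mt1 rose by 1.54 ± 0.19 on the log2 scale (adjusted p = 0.0189); the call was lost without d0_WT_41, d0_WT_43, d0_WT_46, d0_KO_53 or d0_KO_60. Its neighbour Mt2 measured 12.7, 7.17, 4.85 and 7.31 CPM in WT and 26.6, 21.7, 22.6, 17.4 and 22.8 CPM in KO. These groups were separate too, with a log2 fold change of 1.48 ± 0.23 that missed the threshold over 9 libraries (adjusted p = 0.0814) and passed it over 7 (adjusted p = 0.00235). Mt1 and Mt2 are close copies of each other, and reads that fit both could be lost or split by the counting.

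Mt4, a metallothionein known from stratified epithelia, was almost absent from WT and low in KO. The WT libraries held 1, 1, 1 and 0 reads of it, and the KO libraries 14, 8, 15, 13 and 30. In all there were 3 counts in WT and 80 in KO, a ratio of 43.5 after adjustment for depth with a 95% exact interval of 14.4 to 215, which covers counting error only. The edgeR test called it (adjusted p = 0.0331) at a KO mean of 1.33 ± 0.85 CPM (SD, n = 5). The DESeq2 Wald test gave it no adjusted p. Mt4 entered edgeR's test only through the KO libraries, where it was higher, because the count filter works by group. It passed neither without d0_WT_41, d0_WT_43 or d0_WT_46, nor, being too low to be tested, without d0_KO_24, d0_KO_53, d0_KO_54 or d0_KO_60. Library d0_KO_60 gave the highest value, 2.83 CPM. Mt3, the fourth gene of the cluster and best known from brain, was at 2.16, 2.31, 1.25 and 1.81 CPM in WT and 3.34, 2.70, 4.13, 3.24 and 2.27 CPM in KO, which overlap at 1 KO library (adjusted p = 0.371).

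The 4 genes lie side by side on chromosome 8 and are all transcribed from the plus strand: Mt4 starts at base 94137204, Mt3 next, Mt2 at 94172618 and Mt1 at 94179089. Metallothionein genes are classic targets of the zinc-sensing factor MTF1, which binds metal response elements. Because Mt1, Mt2 and Mt4 were all higher in the same 5 KO libraries, their promoters are shown, from 250 bases before to 50 bases after the annotated start (RefSeq, GRCm38.p6, plus strand, 5′ to 3′). Capitals mark each match to the 7-base core of the metal response element, written TGCACNC or TGCGCNC, on either strand.
Mt1 promoter, chr8:94178839-94179138: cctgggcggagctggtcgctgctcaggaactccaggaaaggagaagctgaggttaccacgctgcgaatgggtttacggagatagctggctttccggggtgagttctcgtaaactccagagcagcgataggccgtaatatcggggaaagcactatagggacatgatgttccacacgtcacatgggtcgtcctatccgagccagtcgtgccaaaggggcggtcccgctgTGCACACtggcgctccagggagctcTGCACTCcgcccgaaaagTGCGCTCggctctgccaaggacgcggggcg
Mt2 promoter, chr8:94172368-94172667: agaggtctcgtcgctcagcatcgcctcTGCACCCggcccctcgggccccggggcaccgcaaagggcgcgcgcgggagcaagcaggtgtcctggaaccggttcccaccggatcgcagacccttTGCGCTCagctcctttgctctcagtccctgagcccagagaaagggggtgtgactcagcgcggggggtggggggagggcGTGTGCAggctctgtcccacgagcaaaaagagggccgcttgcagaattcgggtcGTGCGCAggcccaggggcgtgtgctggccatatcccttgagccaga
Mt4 promoter, chr8:94136954-94137253: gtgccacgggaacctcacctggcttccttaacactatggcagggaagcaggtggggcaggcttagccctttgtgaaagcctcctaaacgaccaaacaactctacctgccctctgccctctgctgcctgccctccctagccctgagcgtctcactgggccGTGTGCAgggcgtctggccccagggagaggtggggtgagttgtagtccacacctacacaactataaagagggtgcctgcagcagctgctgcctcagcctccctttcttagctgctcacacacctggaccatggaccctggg
The Mt2 window holds 4 core matches, the Mt1 window 3 and the Mt4 window 1. In Mt1 the first match starts 23 bases before the annotated start, and the others lie just after it, at bases 3 and 21. Among 32851 promoter windows of the same length, 25.7% hold at least 1 match, 1.97% at least 3 and 0.517% at least 4. The Mt3 and Hk2 windows hold 1 match each and the Ces1g window none. Positions refer to the annotated starts, and where transcription starts in these cells was not tested. Matches outside the windows were not counted. A match is a description of the letters and no evidence of binding.

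The remaining genes of the zinc list did not pass edgeR's test over 9 libraries. Mtf1 itself was at 30.5, 36.6, 31.4 and 34.2 CPM in WT and 24.3, 24.6, 25.5, 27.8 and 27.1 CPM in KO. Its groups were separate, in the opposite direction to Mt1 and Mt2, with a log2 fold change of -0.36 ± 0.085 (adjusted p = 0.228 over 9 libraries and 0.0409 over 7). Slc39a8, an importer of zinc and manganese, was at 29.99 to 42.7 CPM in WT and 39.5 to 53.003 CPM in KO and passed only over 7 libraries (log2 fold change 0.56 ± 0.11, adjusted p = 0.0303). The zinc exporter Slc30a1, a further known MTF1 target, was at 38.5 to 61.5 CPM in WT and 43.4 to 52.96 CPM in KO (log2 fold change -0.099 ± 0.12). Of the 17 tested genes of the list, 5 had an unadjusted p under 0.05 with higher values in KO and 1 with lower. The shares of all tested genes were 5.57% and 4.89%. The list's median log2 fold change was 0.038.

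Ces1g gave the smallest adjusted p of the comparison. This carboxylesterase hydrolyses esters and lipids in liver and gut. WT libraries held 26.9, 29.1, 24.7 and 34.3 CPM and KO libraries 71.5, 66.3, 107, 82.7 and 66.4 CPM, so that the lowest KO value was well above the highest WT value. The log2 fold change was 1.45 ± 0.16 (adjusted p = 0.0137), and Ces1g passed in 7 of the 9 fits that left out 1 library, all but those without d0_WT_41 or d0_WT_43. Its relative Ces1d had values of 81.1, 39.9, 36.4 and 45.6 CPM in WT and 69.1, 88.96, 72.1, 71.2 and 61.6 CPM in KO. The WT library d0_WT_31 lay within the KO range, and Ces1d passed over 7 libraries (log2 fold change 0.76 ± 0.096, adjusted p = 0.00765) but not over 9 (adjusted p = 0.432). Of 10 tested carboxylesterases, 2 had an unadjusted p under 0.05, both higher in KO, against 5.57% of all tested genes. The median log2 fold change was 0.22. Over 7 libraries 3 of 10 were called higher, against 2.34% of all tested genes, and none lower, at a median of 0.39.

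Ces1g, Mt4, Mt2 and Mt1 lie within 1 Mb of each other on chromosome 8. Ces1g occupies chromosome 8, bases 93302369 to 93337308 on the minus strand. In the window of 90 to 95 Mb, 9 of 41 tested genes (22%) had non-overlapping groups, against 3.44% of all tested genes, and this was the highest share among the 290 windows of 5 Mb with at least 20 tested genes. The 9 were Ces1g, Mt1, Mt2 and Mt4, the transcriptional regulator Tox3, the iron-sulfur assembly factor Ciapin1 and Ccdc102a, all higher in KO, with the ciliary gene Rpgrip1l and the chemokine Cx3cl1 lower. Cx3cl1 (fractalkine, which attracts cells with the receptor CX3CR1) was at 92.5, 74.4, 66.7 and 86.4 CPM in WT and 54.7, 50.9, 58.9, 56.8 and 58.3 CPM in KO. Its log2 fold change was -0.52 ± 0.10 (adjusted p = 0.148 over 9 libraries, 0.0396 over 7). Ccdc102a lay below 1 CPM in every WT library (0 to 0.655 CPM) and at 0.674 to 2.12 CPM in KO. Like Mt4, it entered the test mainly through the KO libraries, because the count filter works by group. Separate groups with higher KO values were thereby favoured for both genes, and both count in the shares of this window. The window also ranked first without d0_KO_32 (12 of 39 genes, against 6.43% of all genes) and without both libraries (20 of 40, against 20.9%). With lane 1 alone 5 genes of the window were separate, against 3.52% of all genes, and without d0_WT_31 alone 17 were, against 16.1%. In the DSS libraries the window held 0 of 44 separate genes on day 3. On day 7 it held 1 of 44 (2.27%), against 0.308% of all genes. With 7 libraries per genotype separate groups are harder to reach, so these counts do not compare directly with day 0. At an unadjusted p under 0.05 (edgeR), the window had 15 of 41 genes (36.6%) on day 0, against 10.5% of all genes. That was rank 2 of 290 windows, behind 20 to 25 Mb of chromosome 13 (40 of 81, 49.4%). Without d0_WT_31 and d0_KO_32 the window was at rank 4 of 292 by this measure. On day 7 the window had 11 of 44 genes (25%) at that p, rank 10 of 300 windows. On day 3, leaving out d3_KO_345 (described below), it had 6 of 44 (13.6%), rank 15 of 295. The window was chosen after the positions of the called genes were known. Ces1g, Mt1 and Mt4 count among its 9 genes, so its rank partly restates those calls. With the called genes left out, 6 of 53 tested genes within 5 Mb of Mt1 had non-overlapping groups, Mt2 and Ccdc102a among them.

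**Figure D2:**
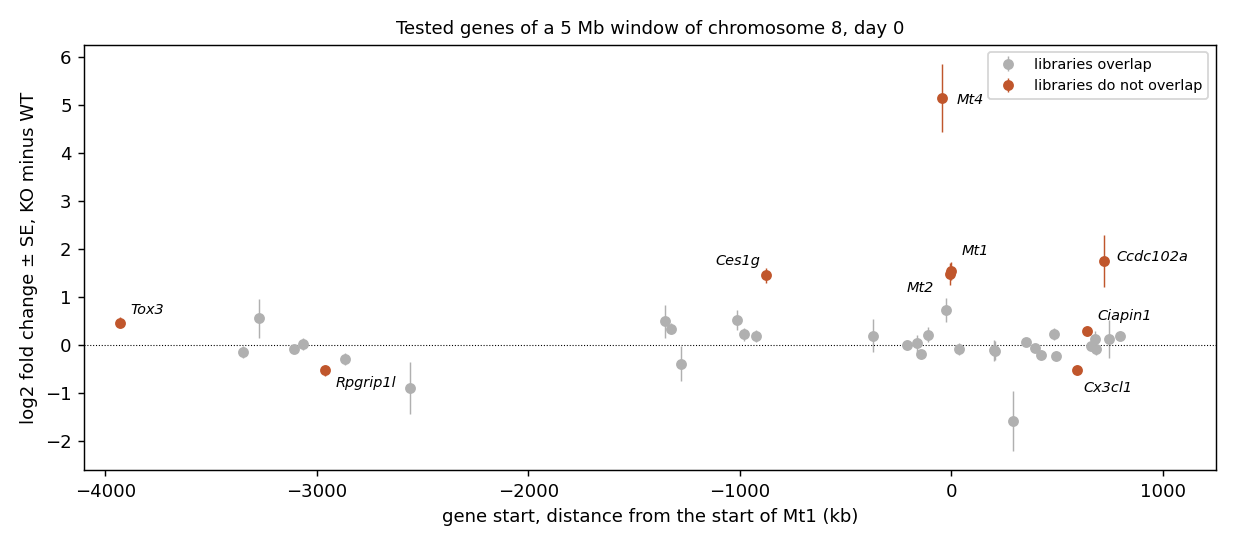
Log2 fold change with SE (KO minus WT, day 0) of the 41 tested genes in a 5 Mb window of chromosome 8 against the distance of each gene's start from that of Mt1, in kb. The 9 orange genes have non-overlapping groups and the grey genes do not; Mt4 stands highest, at 5.14, and Nlrc5, a grey gene, lowest, at -1.57.

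Genes of fatty acid oxidation and ketone body synthesis passed the test over 7 libraries, all in 1 direction. Over 9 libraries 0 of the 28 tested members passed in edgeR and 1 in the DESeq2 Wald test. At an unadjusted p under 0.05 (edgeR), 8 were higher in KO and 0 lower, against 5.57% and 4.89% of all genes. The list's median log2 fold change was 0.21 against -0.0030 for all genes. Over 7 libraries, 9 of 28 rose and 0 fell, at a median of 0.32, where 2.34% of all genes were called higher.

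The members called over 7 libraries included enzymes of the oxidation itself and thioesterases. Acaa2, the last thiolase of the mitochondrial cycle, was at 129, 73.6, 80.4 and 88.6 CPM in WT and 125, 143, 114, 119.9 and 115 CPM in KO (log2 fold change 0.56 ± 0.087 over 7 libraries, adjusted p = 0.0162). Also called were Acot1, Acot2, Acads, Ech1, Eci2 and the peroxisomal Ehhadh, with log2 fold changes of 0.36 (Eci2), 0.35 (Acads), 0.39 (Ech1), 0.42 (Ehhadh), 0.73 (Acot2) and 0.83 (Acot1). In each of these genes d0_WT_31 was the highest WT library. Acsf2, an acyl-CoA synthetase outside the list, was at 78.8, 76.4, 77.8 and 86.6 CPM in WT and 104, 109, 128, 111 and 107 CPM in KO, with separate groups (log2 fold change 0.49 ± 0.088, adjusted p = 0.146).

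Pdk4, the kinase that switches off pyruvate dehydrogenase and spares glucose, was also higher in every KO library. It measured 11.5, 13.8, 9.28 and 15.98 CPM in WT and 18.1, 18.5, 24.1, 22.8 and 25.9 CPM in KO. The groups were separate (log2 fold change 0.78 ± 0.17; adjusted p = 0.163 over 9 libraries and 0.0361 over 7). Of the 37 tested glycolysis genes other than hexokinases, 2 were higher and 2 lower at an unadjusted p under 0.05, against 5.57% and 4.89% of all genes. Their median log2 fold change was 0.071. Over 7 libraries 10 were higher and 2 lower at that p, against 12% and 11.4% of all genes, at a median of 0.14. Pdk4 and Ldhb (lactate dehydrogenase B; log2 fold change 1.36, adjusted p = 0.0238) rose there and Eno3 fell. Eno3, the enolase typical of muscle, was at 82.7, 83.2, 78.5 and 85.9 CPM in WT and 61.9, 19.2, 41.5, 42.5 and 49.1 CPM in KO, lowest in d0_KO_32 but below every WT library in all 5 (log2 fold change -0.94 ± 0.23, adjusted p = 0.234 over 9 libraries and 0.0205 over 7). Slc2a5, the fructose transporter, was low, at 0.9 to 1.77 CPM in WT and 2.17 to 3.48 CPM in KO (adjusted p = 0.234). Pck2, the mitochondrial phosphoenolpyruvate carboxykinase, was at 35.4 to 41.6 CPM in WT and 44.6 to 54.8 CPM in KO and passed over 7 libraries (0.35 ± 0.078, adjusted p = 0.0359).

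No nuclear-encoded subunit of the respiratory chain passed. Of 71 tested subunits, 0 had an unadjusted p under 0.05 in edgeR, and the DESeq2 Wald test called 0 as well. Their log2 fold changes ran from -0.13 to 0.28 with a median of 0.11. Over 7 libraries the median was 0.18, 20 of 71 had an unadjusted p under 0.05, all of them higher in KO, and 0 were called (edgeR), where 12% of all genes had such a p with higher values in KO. The 19 tested genes of the tricarboxylic acid cycle had a median of 0.057 and 1 unadjusted p under 0.05, Idh2 (89.7 to 121 CPM in WT, 111 to 147 CPM in KO). Transcripts of the mitochondrial genome had a median of 1.47 that rested on d0_KO_32: without that library alone it was 0.15. Of the permeability transition genes, Ppif (cyclophilin D, a regulator of the mitochondrial pore) was at 65.2, 54.6, 53.05 and 51.6 CPM in WT and 70.6, 61.2, 64.99, 65.7 and 62.7 CPM in KO (log2 fold change 0.21 ± 0.089, adjusted p = 0.445; 0.32 ± 0.077, adjusted p = 0.0434 over 7 libraries). Slc25a4, an adenine nucleotide carrier of the inner membrane, was at 8.91 to 15.5 CPM in WT and 15.2 to 23.8 CPM in KO and passed over 7 libraries (0.80 ± 0.15, adjusted p = 0.0274).

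Enzymes that handle foreign compounds passed over 7 libraries in 1 direction as well. Of 32 tested genes of xenobiotic metabolism, 11 had an unadjusted p under 0.05 and higher values in KO, against 5.57% of all tested genes, and 0 lower values, with a median log2 fold change of 0.28. Over 7 libraries 7 rose, against 2.34% of all genes, and 0 fell. The DESeq2 Wald test called 5 of them higher over 9 libraries, and 1.17% of all genes in either direction. Cyp2c65, a cytochrome P450 of the gut, was at 106, 94.9, 67.03 and 120.1 CPM in WT and 142, 169.6, 163, 159 and 167 CPM in KO. Its groups were separate (log2 fold change 0.72 ± 0.15; adjusted p = 0.163 over 9 libraries, 0.0333 over 7). Ugt2b5, which adds glucuronic acid to steroids and drugs, was at 18.4, 11.7, 8.93 and 14.8 CPM in WT and 23.7, 34.6, 28.96, 22.2 and 23.1 CPM in KO (log2 fold change 0.97 ± 0.20; adjusted p = 0.163 and 0.0162). The glutathione transferase Gsta4 measured 20.1 to 36.2 CPM in WT and 33.2 to 50.9 CPM in KO, passing over 7 libraries (0.81 ± 0.12, adjusted p = 0.0153). Ugt1a1, the bilirubin-conjugating enzyme, shares its last exons with the other Ugt1a genes, so its count is uncertain; it stood at 5.96 to 13.1 CPM in WT and 13.7 to 24.8 CPM in KO. Among 15 antioxidant genes, 4 had an unadjusted p under 0.05, all higher in KO, including Nqo1 (quinone reductase; 40.6 to 58.1 CPM in WT and 55.1 to 67.3 CPM in KO) and Gclc (the catalytic subunit of glutathione synthesis; 72.99 to 93.9 and 93.8 to 131 CPM). Over 7 libraries 2 of 15 antioxidant genes passed, Nqo1 and Sod1, both higher in KO, against 2.34% of all genes.

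**Figure D3:**
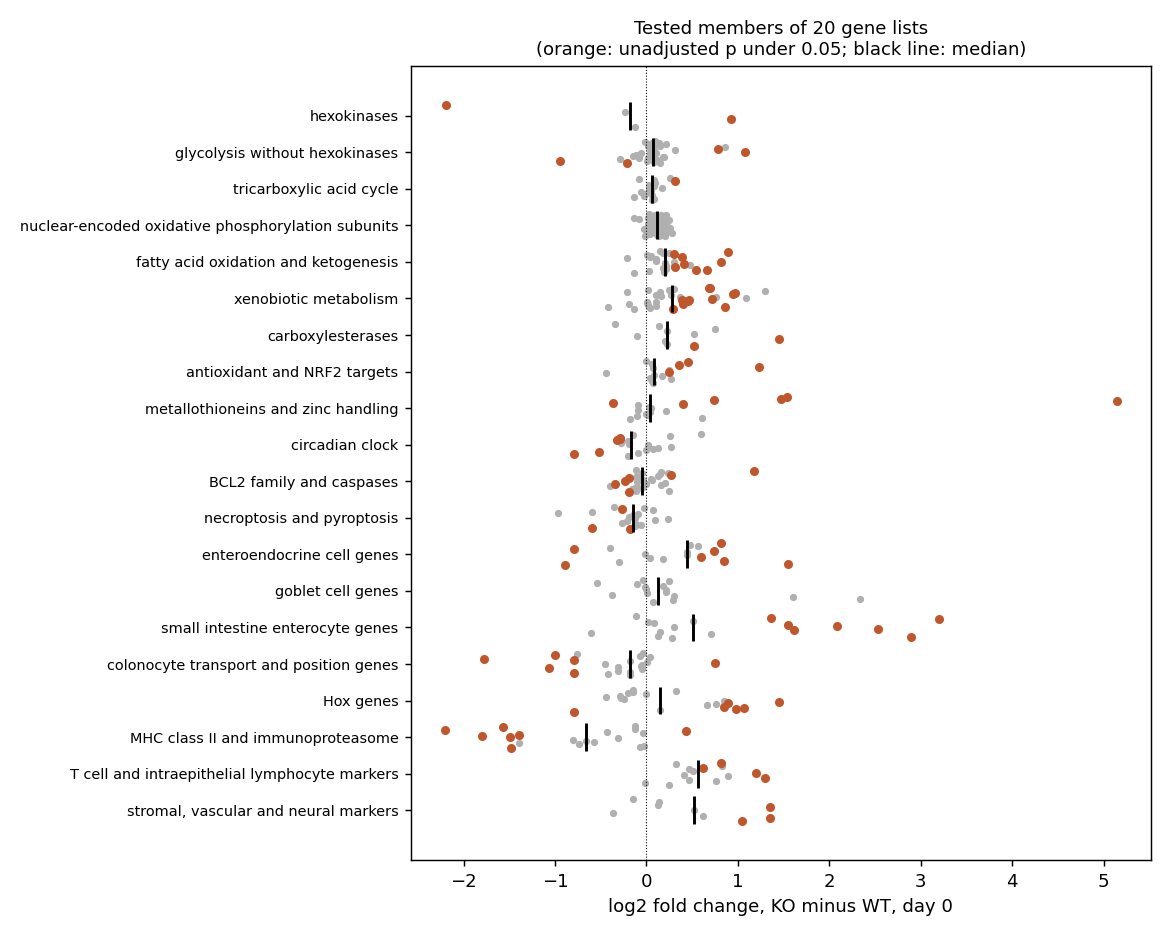
Log2 fold changes (KO minus WT, day 0) of the tested members of 20 gene lists, 1 point per gene, orange where the unadjusted p is under 0.05, with a black line at each list's median. Fatty acid oxidation and xenobiotic genes have orange points above 0 only, the 71 respiratory chain subunits cluster near 0, and the list of MHC class II and immunoproteasome genes has a median of -0.66.

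The clock repressor Per2 fell in KO epithelium with little spread. WT libraries held 22.5, 26.4, 27.1 and 21.6 CPM and KO libraries 13.98, 13.03, 14.2, 14.98 and 13.9 CPM. Within each genotype the values were close, and the gap between genotypes exceeded both ranges (log2 fold change -0.80 ± 0.099, adjusted p = 0.0189). The call was lost without d0_WT_41, d0_WT_43, d0_KO_53, d0_KO_54 or d0_KO_60. Per2 is on chromosome 1, bases 91415982 to 91459324, minus strand. Of 18 tested clock genes, 5 had an unadjusted p under 0.05 with lower values in KO, against 4.89% of all tested genes, and 0 with higher values. The 5 were Per2, Per1, Per3, Clock and Bhlhe40. Per1 was at 22.5, 32.1, 33.9 and 30.7 CPM in WT and 23.4, 13.03, 20.2, 19.5 and 27.5 CPM in KO, and its groups overlapped (log2 fold change -0.52 ± 0.18, adjusted p = 0.38 over 9 libraries and 0.043 over 7). Clock, the activator that pairs with BMAL1, was at 118, 135, 139.8 and 157 CPM in WT and 115, 111, 118, 107 and 109.8 CPM in KO, with separate groups (log2 fold change -0.29 ± 0.093, adjusted p = 0.345; 0.0471 over 7). By contrast Arntl, which encodes BMAL1, and Nr1d1, its repressor, gave log2 fold changes of -0.14 ± 0.10 and -0.0041 ± 0.23, and Dbp, a strongly rhythmic output gene, 0.26 ± 0.30. The hour at which each mouse was killed is not given in the sources used here.

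No cell death gene passed the test. At an unadjusted p under 0.05 (edgeR), 5.57% of all tested genes were higher and 4.89% lower. Among 29 tested BCL2 family members and caspases, 2 were higher and 4 lower at that p, and the median was -0.052. Among 19 necroptosis and pyroptosis genes, 0 were higher and 3 lower at an unadjusted p under 0.05, and the median was -0.14. The inflammasome sensor Nlrp1b, one of several near-identical copies in mouse and therefore of uncertain count, measured 22.8 to 39.6 CPM in WT and 14.7 to 24.2 CPM in KO. Neither list had a called gene over 9 or over 7 libraries in edgeR, or in the DESeq2 Wald test. Of all tested genes 0.0335%, 3.73% and 1.17% were called there, so lists of this size could hold few calls in any case. Hspa5, the main chaperone of the endoplasmic reticulum, was at 1017, 915, 936 and 709 CPM in WT and 622, 454, 658, 752 and 704 CPM in KO (log2 fold change -0.49 ± 0.16, adjusted p = 0.367).

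Markers of gut position were uneven between the genotypes, and their part in the results above was not tested beyond the covariate fits. Hoxb13, a homeobox gene of the most distal colon, was at 182, 169, 205 and 175 CPM in WT and 145, 43.5, 107, 123 and 107 CPM in KO, and Hoxb7, which marks more proximal segments, at 2.22, 2.86, 2.98 and 3.79 and 6.32, 5.05, 6.25, 6.29 and 7.36 CPM. Both had separate groups in opposite directions (log2 fold changes -0.79 ± 0.25 and 1.06 ± 0.19; adjusted p = 0.0299 and 0.0197 over 7 libraries). The Hox genes as a list were mixed: of 19 tested, 10 had log2 fold changes above 0 and 9 below (median 0.15). At an unadjusted p under 0.05 (edgeR), 5 were higher and 1 lower, against 5.57% and 4.89% of all genes. Over 7 libraries 8 of 20 were higher and 5 lower at that p, against 12% and 11.4%, at a median of -0.12. Car1, a carbonic anhydrase of the proximal colon, was at 1759 to 2725 CPM in WT and 2836 to 4004 CPM in KO (adjusted p = 0.0338 over 7). It belongs to a list of 21 tested genes of colonocyte transport and position, of which 18 had log2 fold changes below 0 (median -0.19). At an unadjusted p under 0.05, 1 of the 21 was higher and 5 were lower in KO, against 5.57% and 4.89% of all genes. Over 7 libraries Car1 was called higher and Hoxb13 and Ly6g lower, of 22 tested, against 2.34% and 1.39% of all genes. Of 17 tested genes of small intestinal enterocytes, 15 had log2 fold changes above 0 (median 0.51). At an unadjusted p under 0.05 (edgeR) 7 were higher in KO, against 5.57% of all tested genes, and 0 lower. Over 7 libraries 9 of 19 were higher at that p, against 12% of all genes, and 0 were called by edgeR. Fabp6, the ileal bile acid binding protein, stood at 2.92, 3.59, 7.02, 4.81 and 41.1 CPM in KO against 1.21 to 2.50 CPM in WT. The Paneth cell gene Itln1 reached 32.1 CPM in d0_KO_54 and 0.337 to 6.20 CPM in the other KO libraries, against 0.277 to 1.34 CPM in WT. The villus peptidase Anpep was highest in d0_KO_60 (97.8 CPM) and d0_KO_53 (23.7 CPM) and at most 4.99 CPM elsewhere. With the mean log2 level of the small intestine genes as a covariate, 1 gene, Hk2, was called by edgeR, and 2611 genes had an unadjusted p under 0.05, against 1563 without it. In that fit the log2 fold changes were -2.87 for Hk2, 1.47 for Mt1, 4.46 for Mt4, 1.32 for Ces1g and -0.77 for Per2, each in the direction of the fit without the covariate. With the mean of the T cell markers as a covariate 0 genes were called by edgeR, 1887 had an unadjusted p under 0.05, and Hk2 had a log2 fold change of -2.58 (adjusted p = 0.0679), with 1.69 for Mt1, 5.19 for Mt4, 1.40 for Ces1g and -0.85 for Per2.

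**Figure D4:**
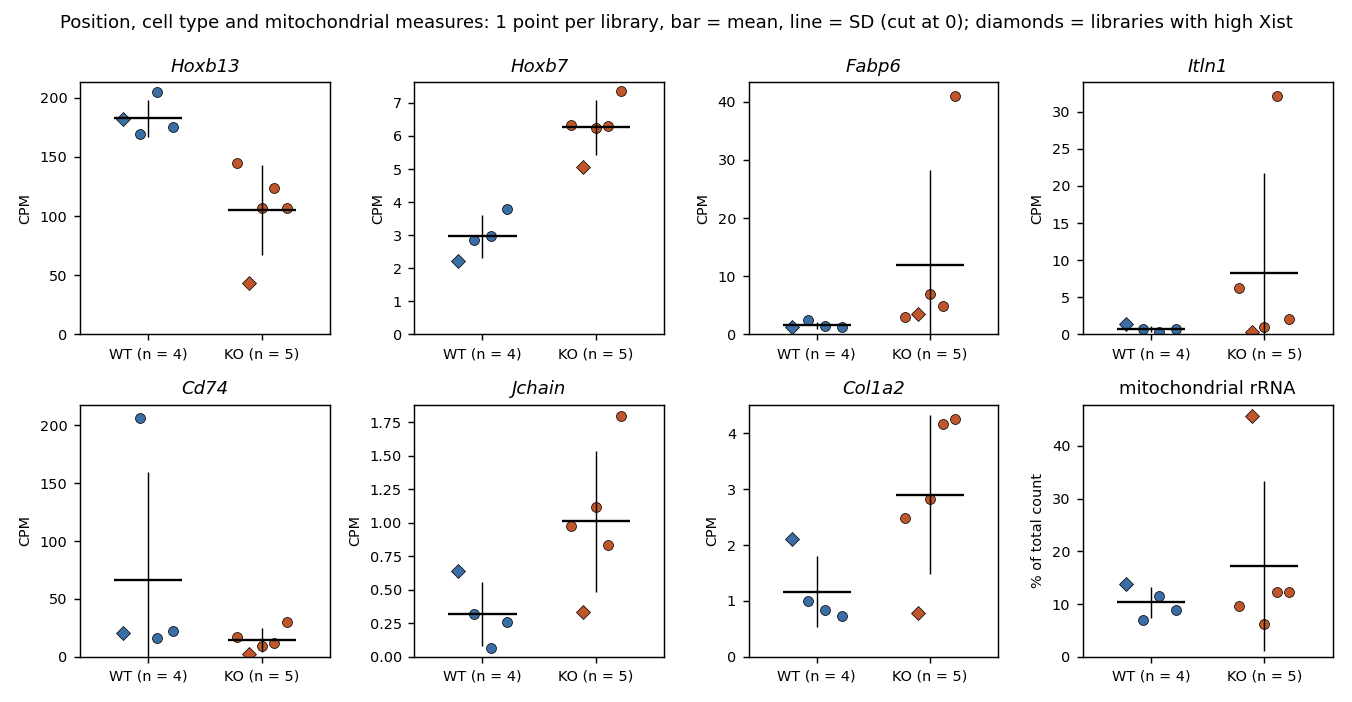
Levels in CPM of 7 marker genes, and the share of counts from mitochondrial rRNA in percent, in the 4 WT and 5 KO libraries, with means and SD; diamonds mark d0_WT_31 and d0_KO_32. Hoxb13 and Hoxb7 separate the genotypes, Fabp6 and Itln1 are high in 1 KO library each, Cd74 in 1 WT library, and the mitochondrial share in d0_KO_32.

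Secretory lineages were uneven. Of 16 tested enteroendocrine genes, 5 were higher and 2 lower in KO at an unadjusted p under 0.05, against 5.57% and 4.89% of all genes. Their median log2 fold change was 0.45. Chga, the granule protein chromogranin A, was at 34.2, 59.7, 42.4 and 58.98 CPM in WT and 70.5, 31.6, 131, 97.5 and 108 CPM in KO, where d0_WT_31 and d0_KO_32 held the lowest level of their groups. Chga, Chgb, Gcg (the precursor of glucagon-like peptides) and Nts (neurotensin) passed over 7 libraries, with log2 fold changes of 0.92, 0.82, 0.70 and 1.57. They were 4 of 16 tested genes, against 2.34% of all genes called higher, and 0 were called lower. Insl5, the hormone of distal colonic L cells, went the other way, at 18.1, 19.6, 21.7 and 15.9 CPM in WT and 14.1, 7.19, 11.8, 12.8 and 7.65 CPM in KO (log2 fold change -0.80 ± 0.19, adjusted p = 0.232). The summed level of goblet cell genes was 18095 to 31533 CPM in WT and 8942 to 38537 CPM in KO, lowest in d0_KO_32, and 0 of 16 had an unadjusted p under 0.05 or passed the DESeq2 Wald test over 9 libraries. Over 7 libraries 9 of 16 were higher and 0 lower at an unadjusted p under 0.05 (edgeR), against 12% and 11.4% of all genes. Of these, 2 were called, Klk1 and Spdef, a transcription factor of goblet cells, against 2.34% of all genes called higher.

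RNA of immune and stromal cells was a small share in both genotypes. The summed level of 20 stromal, vascular and neural markers was 24.8 to 41.1 CPM in WT and 23.5 to 57.7 CPM in KO. Col1a2, a fibroblast collagen, measured 2.10, 0.998, 0.831 and 0.735 CPM in WT and 2.49, 0.786, 2.83, 4.16 and 4.25 CPM in KO. Over 7 libraries 3 of 9 tested markers passed, Col1a2, Col3a1 and Dcn. All were higher in KO, against 2.34% of all genes, and 0 were called lower. Over 9 libraries 0 were called, and 3 of 9 were higher and 0 lower at an unadjusted p under 0.05 (edgeR), against 5.57% and 4.89%. B and plasma cell markers summed to 4.92 to 16.5 and 2.58 to 13.9 CPM, and Jchain, which joins secreted IgA and IgM, was at 0.0693 to 0.643 CPM in WT and 0.337 to 1.79 CPM in KO. Of 14 tested T cell markers, 13 had log2 fold changes above 0 (median 0.56). At an unadjusted p under 0.05 (edgeR), 4 were higher and 0 lower in KO, against 5.57% and 4.89% of all genes. Over 7 libraries all 15 tested were above 0, and 6 were higher and 0 lower at that p, against 12% and 11.4%. In either fit 0 were called by edgeR. Lck, a T cell kinase, was at 4.26, 3.63, 2.70 and 3.59 CPM in WT and 6.45, 5.95, 4.31, 5.09 and 5.66 CPM in KO. The list of MHC class II and immunoproteasome genes had the lowest median, -0.66, and 1 library stood apart in it. Cd74, the class II invariant chain, was at 206 CPM in d0_WT_41, and at 16.1 to 22.6 CPM in the other WT libraries and 2.81 to 30.2 CPM in KO. The interferon-induced Gbp2 was also high there, at 82.98 CPM in d0_WT_41 and 2.92 to 15.1 CPM in KO. Over the 7 libraries, which include d0_WT_41, the groups of Gbp2 overlapped and it was not called (log2 fold change -2.16 ± 0.66, edgeR adjusted p = 0.0883). In such bulk libraries, fewer cells of a type and less RNA per cell cannot be told apart.

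Replication-dependent histone genes made a group of their own. Of 48 tested Hist1h genes, 38 had an unadjusted p under 0.05 with higher values in KO, against 5.57% of all tested genes, and 0 with lower. Their median log2 fold change was 0.62, and 0 were called by edgeR over 9 libraries. Over 7 libraries 15 rose, against 2.34% of all genes, and 0 fell. As a share of the total count they ran from 0.262 to 0.318% in WT and from 0.255 to 0.398% in KO. The DESeq2 Wald test called 3 of them, all higher. Most of these RNAs end without a poly(A) tail, and as near-identical copies their single counts are uncertain. Proliferation genes had a median of 0.19 over 9 libraries and -0.02 over 7. The mitotic kinase Plk1 was at 61.1, 66.7, 63.3 and 63.8 CPM in WT and 86.7, 68.2, 85.04, 75.5 and 82.6 CPM in KO (adjusted p = 0.273 over 9 libraries, 0.0369 over 7), whereas Mki67, the common marker of cycling cells, fell over 7 libraries (-0.48, adjusted p = 0.0424).

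The uncalled genes with separate groups and a mean log2 CPM of at least 2 were ranked by p. The 10 with the smallest p in each direction were of mixed function. Each passed the test over 7 libraries. Those 7 are part of the 9 libraries by which the genes were chosen, so this is no independent support. Kcnh3, a voltage-gated potassium channel, was at 21.3, 22.3, 15.3 and 19.99 CPM in WT and 39.8, 26.3, 46.8, 39.6 and 41.7 CPM in KO (log2 fold change 0.98 ± 0.16, adjusted p = 0.11; 0.00522 over 7). Aqp1, a water channel, was at 77.6, 51.7, 41.1 and 56.5 CPM in WT and 95.5, 103, 122, 113 and 91.95 CPM in KO (0.89 ± 0.16, adjusted p = 0.146). Amn, which anchors the receptor for vitamin B12 bound to intrinsic factor, was low, at 2.22, 2.95, 2.29 and 2.78 CPM in WT and 4.26, 5.62, 9.85, 5.74 and 8.31 CPM in KO (1.39 ± 0.25). Besides these, Mt2, Hoxb7 and Acsf2, the higher set held Chst11 (a chondroitin sulfotransferase), Cacnb3 (a calcium channel subunit), Pmm1 (a phosphomannomutase) and Fgfrl1 (a receptor of the FGF family without a kinase), with log2 fold changes of 1.19, 0.54, 0.58 and 0.71.

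Of the genes lower in KO, Fut9, a fucosyltransferase that builds Lewis x antigens, was at 14.6, 19.3, 21.8 and 21.4 CPM in WT and 13.3, 7.41, 9.97, 8.42 and 7.18 CPM in KO (log2 fold change -1.05 ± 0.19, adjusted p = 0.146). Hmcn1, an extracellular matrix protein, was at 29.03, 36.1, 47.1 and 44.9 CPM in WT and 27.7, 18.2, 19.7, 13.2 and 15.4 CPM in KO, with d0_KO_24 just under the lowest WT library. Slc5a3, the sodium-coupled importer of myo-inositol, was at 128, 133, 153 and 170.0 CPM in WT and 84.6, 88.8, 106, 92.1 and 110.4 CPM in KO (-0.60 ± 0.11). Skil, a repressor of SMAD signalling, was at 138, 146, 127 and 160.1 CPM in WT and 102, 85.1, 106, 92.04 and 111 CPM in KO (-0.52 ± 0.10). The others, apart from Cx3cl1, were Fam118b, Tbc1d2b, Sh3d21, Creb3l2 (a membrane-bound transcription factor of secretory cells) and Pde7a (a cAMP phosphodiesterase), with log2 fold changes of -0.41, -0.43, -0.59, -0.76 and -0.58.

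The day 0 differences were set beside those under DSS. Hist1h genes took at least 0.255% of the counts on day 0 and at most 0.0517% on days 3 and 7. Whether this comes from treatment or from a technical difference between the sets of libraries was not tested. Treatment and any technical difference cannot be told apart between days. The library labelled d3_KO_345 goes against its label, with 440 CPM of Hk2 where the other KO libraries of day 3 had 70.4 to 131 CPM, and day 3 values are given without it. Within day 3, 1 of 15366 genes was called (0.00651%), and within day 7, 1 of 15584 (0.00642%), by edgeR. Hk2 had log2 fold changes of -0.74 ± 0.18 on day 3 and -1.25 ± 0.30 on day 7, beside the -2.20 of day 0, and neither passed (adjusted p = 0.77 and 0.291).

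Mt1 had a WT mean of 112 CPM on day 3 and 122 CPM on day 7, and the difference between genotypes was 0.32 ± 0.18 and 0.41 ± 0.41 on the log2 scale. Ces1g stood at means of 116 and 113 CPM (WT and KO, day 3) and 96.2 and 89.1 CPM (day 7), with log2 fold changes of -0.033 ± 0.19 and -0.11 ± 0.33. Mt4 kept the direction of day 0, at 1.34 ± 0.34 on day 7, where its 7 KO libraries (0.362 to 0.751 CPM) lay above its 7 WT libraries (0.0649 to 0.336 CPM; adjusted p = 0.291). Per2 had the opposite direction on day 7: 11.3 to 25.5 CPM in WT and 27.1 to 45.9 CPM in KO, a log2 fold change of 0.81 ± 0.17 (adjusted p = 0.291). Non-overlapping groups occurred in 0.308% of genes on day 7.

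An interaction term in a model of all 6 groups tested whether the KO minus WT difference depended on the day. The model takes the spread of a gene to be the same in day 0 and DSS libraries, which may not hold. Mitochondrial rRNA took 6.25 to 45.6% of the counts on day 0 and 0.352 to 3.95% on days 3 and 7. Between day 0 and day 7 it was -1.59 ± 0.35 for Per2 (adjusted p = 0.0959), 1.58 ± 0.41 for Ces1g (0.136) and 1.13 ± 0.49 for Mt1 (0.284), so none of these differences between days passed the threshold. Of 19124 genes, 4 passed between day 0 and day 7 (0.0209%), Skil among them, and 0 between day 0 and day 3 by edgeR, where 2004 (10.5%) had an unadjusted p under 0.05.

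**Figure D5:**
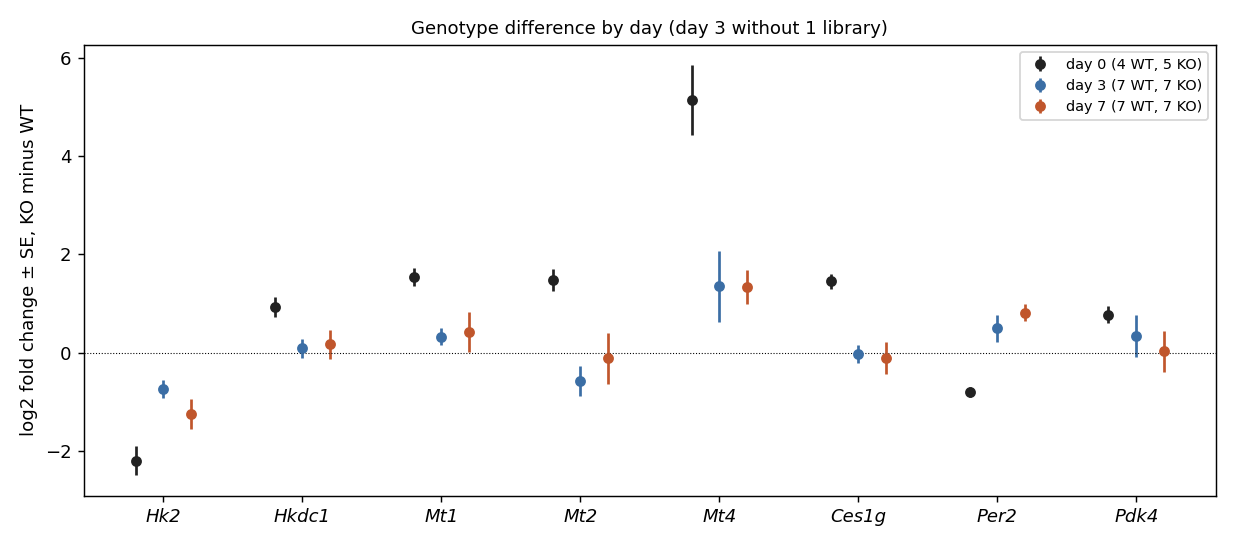
Log2 fold change with SE (KO minus WT) of 8 genes on day 0 (4 WT, 5 KO), day 3 (7 WT, 7 KO, without d3_KO_345) and day 7 (7 WT, 7 KO). Mt1, Mt2, Ces1g and Hkdc1 lie furthest from 0 on day 0, Hk2 is below 0 on each day, and Per2 is below 0 on day 0 and above 0 on days 3 and 7.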

How the data were processed

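RNA-seq of isolated intestinal epithelial cells (TruSeq stranded mRNA kit, NovaSeq) was deposited as raw counts per gene, 2 lanes per library. Per the file headers, reads were counted with featureCounts 1.6.2 without regard to strand; the submitters' processing notes name featureCounts 1.5.2, STAR, Trim Galore and GRCm38. The 2 lane counts of each of 38 libraries were summed over 46078 gene IDs. WT and KO libraries of day 0 were compared with edgeR 4.0.16 (R 4.3.3): filterByExpr by group, TMM scaling, quasi-likelihood test, Benjamini-Hochberg adjustment over all 14944 tested genes, called at an adjusted p under 0.05. DESeq2 1.42.0 was an alternative. CPM are TMM-scaled, and differences are KO minus WT in log2. A count of 3 was taken as the floor of detection. Scripts were tested on simulated data.

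Members and gene lists were chosen with earlier results of these data known. Genes were named by rule: all called genes; in each direction the 10 uncalled genes with the smallest p among those with non-overlapping groups and a mean log2 CPM of at least 2; the 4 smallest p of each of 41 lists, with all members of the hexokinase, metallothionein and zinc, clock and carboxylesterase lists; Ppif; and neighbours within 1 Mb of a called gene with non-overlapping groups. Other named genes were chosen after their values were seen. Alternatives were other size factors and filters, lane 1 alone, covariates and leaving out each library. Promoter sequences are from RefSeq (GRCm38.p6); that of Per2 is not shown. Some genes that the rule names are not reported here.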

Additional observations from a re-analysis of the deposited data

Results flagged for a closer look

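In 4 gene and group pairs of 142 checked, 1 library lay far from the rest of its group; chance alone flags about 1 group in 20. Mt4 reached 2.83 CPM in d0_KO_60, where the next KO library had 1.20 CPM. Acot1, a thioesterase, was at 4.56 CPM in d0_WT_31 and at most 2.98 CPM in the other WT libraries. Ciapin1 was at 29.7 CPM in d0_KO_32, with 23.3 CPM the next highest. Acsf2 was at 128 CPM in d0_KO_53, with 110.5 CPM the next highest.

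The genotype difference of 2 named genes changed between days in the interaction test. For Amn it was larger on day 0 than on day 3 by 1.98 on the log2 scale (edgeR adjusted p = 0.0369), and the adjusted p was 0.0701 without d3_KO_345. For Skil the day 0 difference minus that of day 7 was -0.87 (edgeR adjusted p = 0.0422, and 0.0483 without d3_KO_345). Treatment and any technical difference between the sets of libraries cannot be told apart between these days.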

How the results depend on the processing

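No paired analysis was possible because the numbers in the titles are not shared between the groups. The 5 called genes (3 higher, 2 lower) became 175 (117 and 58) with the DESeq2 Wald test, 52 (39 and 13) without a filter on low counts, and 25 (23 higher) with the mitochondrial rRNA share as a covariate. They became 1 (0 higher, 1 lower) with the small intestine covariate and 0 (0 and 0) with the T cell covariate, by edgeR, where 2611 and 1887 genes had an unadjusted p under 0.05 (1563 without a covariate) and all 5 kept their direction. With robust dispersions, and in the model over all 38 libraries, 4 were called (3 and 1), of which 4 and 1 were among the 5. After the data were seen, leaving out d0_WT_31 and d0_KO_32 together gave 565 (355 and 210), and the Xist pattern as a covariate gave 149 (91 and 58). Without 1 library at a time the calls ranged from 0 to 37 (0 to 21 higher, 0 to 16 lower). The non-overlapping genes, 514 in all, ranged from 625 to 2454 in those fits and were 3173 without both libraries. Hk2 stayed at -2.20 with robust dispersions (adjusted p = 0.0861) and was -2.58 with the T cell covariate (adjusted p = 0.0679); without 1 library at a time it ranged from -2.40 to -1.998. Of the results of the 71 genes followed under the alternatives, 1348 kept direction and side of the threshold. A further 165 passed only under the alternative, 35 passed only in the main analysis, and 0 reversed. Most of these genes were named for a small p in the same libraries that the alternatives reuse. The absence of reversals is therefore no independent support. The causes were not tested. The count of 10.5 to 17.5 M per KO library limits genes near the floor, such as Mt4.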
